A study of Mus musculus with 47 samples.

Results

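UDP-glucuronosyltransferases were measured in mouse liver as 10 named genes, namely Ugt1a1, Ugt1a6a, Ugt1a9, Ugt2a3, Ugt2b1, Ugt2b5, Ugt2b34, Ugt2b35, Ugt2b36 and Ugt2b38. The genes were chosen by name, and a gene was found when the array files gave its name to at least 1 probe. That rule found 8 of the 10 genes among 37325 gene symbols, each with 1 probe, and no probe carries the names Ugt1a1 or Ugt1a9, which are not analysed here. The arrays hold 21 probes named for any Ugt gene, of which 18 were tested.

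Liver mRNA of 47 mice was hybridized to 1-color arrays, 1 array per mouse. The 8 groups crossed sex, genotype (Pxr+/+ or Pxr-/- littermates on the C57BL/6J background) and treatment (Cont, plain drinking water, or ATB). All mice were 6 months old, and ATB mice drank ampicillin at 1 g/L, neomycin at 1 g/L and vancomycin at 0.5 g/L for 2 weeks. Each group held 6 mice, except male Pxr-/- Cont with 5. The Pxr-/- mice lack the pregnane X receptor in the whole body, so a difference in liver cannot be assigned to the receptor of hepatocytes. The mice of a group shared cages, and the cage of each mouse was not given, so the p-values measure the spread between mice as if they were independent.

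UDP-glucuronosyltransferases are enzymes of the endoplasmic reticulum that attach glucuronic acid, donated by UDP-glucuronate, to drugs, bilirubin, bile acids, thyroid hormone and steroids, which makes them soluble enough for excretion into bile or urine. The liver is a main site of this phase II reaction. The Ugt1 locus encodes its enzymes by joining alternative first exons to a common set of later exons, so a probe in those later exons reads every Ugt1a transcript. Ugt2a3 and the Ugt2b enzymes are encoded by separate neighboring genes, which arose by duplication and have very similar sequences. The pregnane X receptor, the product of Pxr (Nr1i2), is a nuclear receptor that senses foreign compounds and is known to induce conjugating enzymes, among them Ugt1a1.

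The 7 members of the Ugt2 family lie in 1 cluster on chromosome 5, with Ugt2b37 among them. Their promoters are shown because these neighbors of common origin differed in how their levels varied with sex. Each line is the 100 bases before the gene's start in RefSeq on build GRCm38.p6, written 5′ to 3′ on the gene's strand, with the hexamers AGGTCA and TTTAAC in capitals. The hexamer TTTAAC was chosen after the sequences were seen.
Ugt2b34 (chr5:86906938-86907037, minus strand): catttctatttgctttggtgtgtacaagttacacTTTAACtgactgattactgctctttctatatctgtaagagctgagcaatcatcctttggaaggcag
Ugt2b1 (chr5:86926504-86926603, minus strand): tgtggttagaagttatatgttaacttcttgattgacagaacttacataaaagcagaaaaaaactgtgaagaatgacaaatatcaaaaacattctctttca
Ugt2b35 (chr5:87000760-87000859, plus strand): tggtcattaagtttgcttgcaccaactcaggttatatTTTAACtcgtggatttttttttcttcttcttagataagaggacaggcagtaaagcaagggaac
Ugt2b36 (chr5:87092556-87092655, minus strand): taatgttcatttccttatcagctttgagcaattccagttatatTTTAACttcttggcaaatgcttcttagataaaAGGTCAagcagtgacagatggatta
Ugt2b5 (chr5:87140341-87140440, minus strand): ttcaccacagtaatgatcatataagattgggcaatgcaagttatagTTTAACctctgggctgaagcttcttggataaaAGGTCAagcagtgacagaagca
Ugt2a3 (chr5:87337196-87337295, minus strand): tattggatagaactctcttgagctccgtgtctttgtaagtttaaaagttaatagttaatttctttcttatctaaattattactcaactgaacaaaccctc
Ugt2b38 (chr5:87424204-87424303, minus strand): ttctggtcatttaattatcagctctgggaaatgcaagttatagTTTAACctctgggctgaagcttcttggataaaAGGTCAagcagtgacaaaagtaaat

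The promoters of Ugt2b5, Ugt2b36 and Ugt2b38 were the most alike. Ugt2b38 and Ugt2b5 were identical at 81.7% of aligned positions, Ugt2b36 and Ugt2b38 at 77%, and Ugt2b36 and Ugt2b5 at 71.2%. Ugt2b1, the member with the largest sex difference below, was identical to the others at 39.6 to 49.1% of aligned positions, and its best match was lower than that of any other of the 7. AGGTCA, the core hexamer bound by many nuclear receptors, was present in 3 of the 7 windows, at 25 bases before the start in Ugt2b36 and Ugt2b38 and at 22 bases in Ugt2b5. Of 32851 RefSeq promoter windows of the same length, 5.88% held it on either strand. The 3 windows with AGGTCA are the most alike ones named above. TTTAAC was present in 5 of the 7, in all but Ugt2b1 and Ugt2a3, and in 2.9% of all windows. As TTTAAC was chosen from these same sequences, its shares are no test of it. GTTAAT, a hexamer from the longer site of the hepatocyte factor HNF1, was found in Ugt2a3 alone and in 2.51% of all windows. The whole HNF1 site was not searched for, and near matches were not counted. TTTAAC on the other strand reads GTTAAA, which differs from GTTAAT in the last base. Ugt2b1 holds GTTAAC, which differs from both in that base. Neither TATAAA, the TATA box, nor TTCNNNGAA, the palindrome bound by STAT5, was in any of the 7, and these letters were in 5.56 and 2.55% of all windows. Both strands were searched for each motif, AGGTCA and TTTAAC share no position in these windows, and a match is a description of letters, not of a bound site.

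The probes of 60 bases also differ in what they can tell apart. Coordinates of probes are those of the array files, on build mm9, and cannot be set beside the promoter coordinates. Of the members, the probes of Ugt2b36 and Ugt2b38 lie in coding sequence, and that of Ugt2b36 joins exons across an intron (chr5:87495455-87509913). The Ugt1 locus on chromosome 1 is read by 5 probes. The probe named Ugt1a6a lies in the last bases of the 3′ end shared by all Ugt1a transcripts (chr1:90116514-90116573), so it does not separate Ugt1a6a from its relatives. Of 3 probes named Ugt1a6b, 1 lies in that gene's own first exon (chr1:90004249-90004308), 1 in the shared coding exon (chr1:90114900-90114959) and 1 in the shared 3′ end (chr1:90115493-90115552). The coding probes are printed because 2 of them carry the comparison of the first and the shared coding exon of Ugt1a.
Ugt2b36 probe: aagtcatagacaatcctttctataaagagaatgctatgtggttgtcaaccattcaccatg
Ugt2b38 probe: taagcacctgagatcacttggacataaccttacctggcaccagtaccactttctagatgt
Ugt1a6b probe in its own first exon: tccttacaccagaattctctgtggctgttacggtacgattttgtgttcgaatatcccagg
Ugt1a probe in the shared coding exon: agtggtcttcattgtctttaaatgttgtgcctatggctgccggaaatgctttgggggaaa

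The probe of Ugt2b5 matches that of its neighbor Ugt2b37 at 46 of 55 overlapping bases, with a longest shared run of 18 bases, so the probes may catch some of each other's transcript. No other pair among the members' probes and those of related genes reached that identity. The probes of Ugt2b35 and Ugt2b37 matched at 26 of 32 overlapping bases, with a longest shared run of 11 bases. Probes were compared only with each other, not with the transcripts of other genes. A low match between probes therefore cannot show that a probe reads its own gene alone, and this was not tested.

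All 8 members' probes were well above background on 47 of 47 arrays, none was saturated on any array and none had a missing value. Between 31090 and 34477 probes were well above background on each array, the 75th percentile of the median signal ranged from 306 to 492.5, and the correlation between arrays of a group ranged from 0.987 to 0.996. Levels are log2 of the median spot signal after normalization, and since probes differ in brightness, levels are compared between mice for a given probe and never between probes. Markers of hepatocytes, such as albumin, were bright in every group, and 0 of 7 were called by limma in any of the comparisons below (at most 4 at an unadjusted p under 0.05, and at most 1 called under quantile normalization). Xist, expressed from the inactive X chromosome, ranged from 7.80 to 8.31 in females and from 4.05 to 4.82 in males. Eif2s3y, on the Y chromosome, ranged from 4.18 to 4.72 in females and from 9.80 to 10.71 in males, except for 1 male Pxr-/- Cont mouse, replicate 2, at 8.58. In whole liver, fewer cells of a type and less RNA per cell cannot be told apart.

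Males were compared with females first, since the members differed most by sex. Ugt2b1 was higher in males in all 4 settings of genotype and treatment, and Ugt2b35 in 3 of 4. Ugt2b5, Ugt2b36 and Ugt2b38 of the same cluster were called higher in males in some settings only. No member was called lower in males in this fit, while Ugt2b34 was so called in Pxr-/- ATB under 4 of 11 alternatives. A member was called when limma's false discovery rate, adjusted over all 32980 tested probes, was 0.05 or less and the fold change was above 1.2.

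Ugt2b1 separated the sexes completely. In Pxr+/+ Cont mice its log2 level had a lowest value of 11.55, a median of 12.02 and a highest value of 12.20 in males, against 10.73, 11.09 and 11.30 in females. In Pxr+/+ ATB mice it was 11.80, 12.31 and 12.51 in males, against 10.72, 11.03 and 11.50 in females. Every male lay above every female of the same setting in both. In Pxr-/- Cont mice the 5 males were at 12.18, 12.23, 12.51, 12.52 and 12.62, and the females ranged from 10.69 to 11.54 around a median of 11.08. In Pxr-/- ATB mice the males were at 12.33, 12.89 and 13.08, and the females at 11.20, 11.47 and 11.68, as lowest, median and highest. The groups again did not overlap. The fold difference was 1.85 in Pxr+/+ Cont (adjusted p = 6.68e-06), 2.33 in Pxr+/+ ATB (adjusted p = 9.36e-09), 2.46 in Pxr-/- Cont (adjusted p = 7.93e-09) and 2.52 in Pxr-/- ATB (adjusted p = 8.87e-10), all by limma. The 95% confidence intervals of the log2 difference ran from 0.60 to 1.17, 0.93 to 1.50, 1.00 to 1.60 and 1.05 to 1.62 in that order. Within each of the 3 wash batches the difference was also positive in all 4 settings. Those batches held 3, 2 and 1 mice of each group (2, 2 and 1 of male Pxr-/- Cont), so any value given for a single batch rests on few mice, and that of wash batch 3 on 1 mouse against 1 in each setting.

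**Figure D1:**
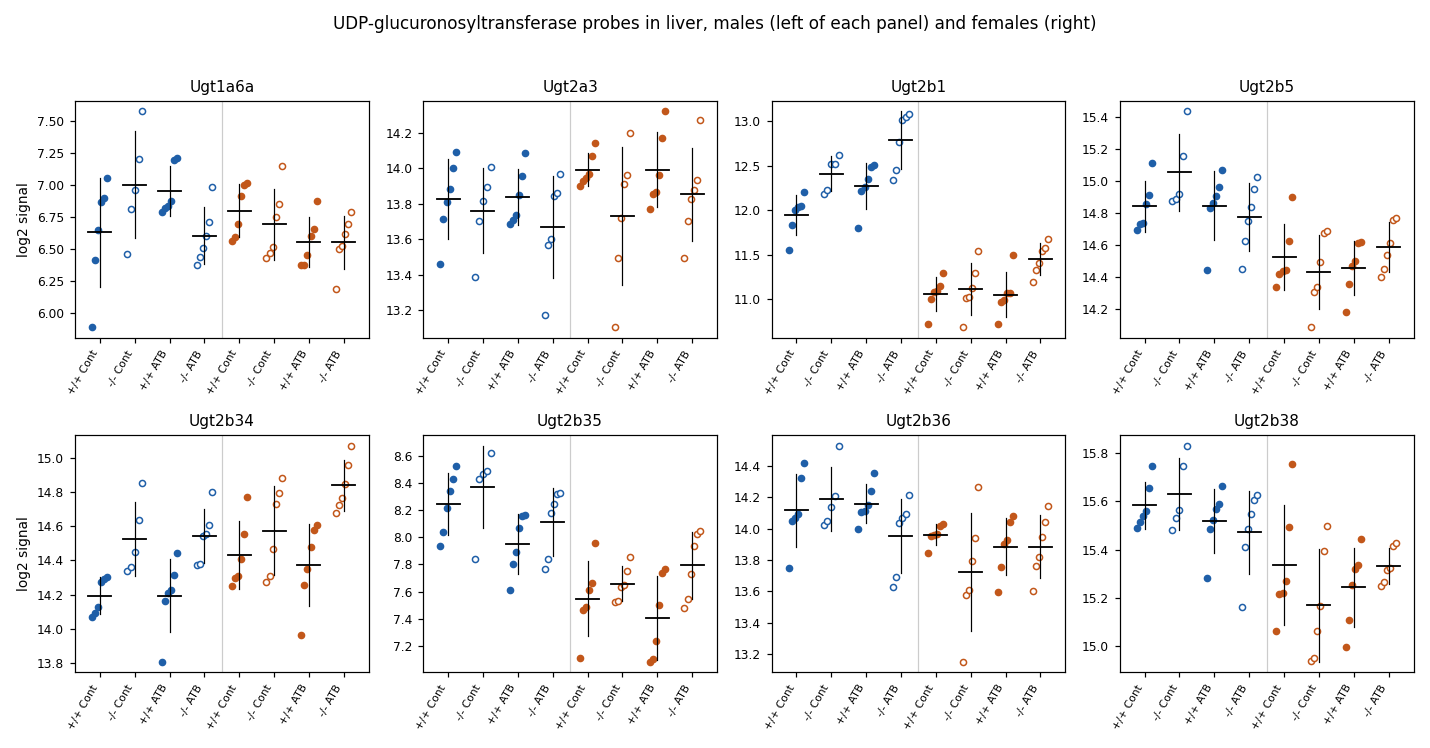
Log2 signal of the 8 members in each of 47 mice, 1 panel per member, with males in blue on the left, females in orange on the right, filled points for Pxr+/+ and open points for Pxr-/-. The horizontal line is the group mean and the bar is ± SD; for Ugt2b1 every male lies above every female of its own setting, while for Ugt2a3 the groups overlap.

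Ugt2b35 showed the same direction with a smaller size. In Pxr+/+ Cont its log2 level was 7.94, 8.28 and 8.53 in males (lowest, median, highest) and 7.11, 7.55 and 7.95 in females, and 5 of 6 males lay above all females. The fold difference was 1.62 (limma, adjusted p = 0.000274). In Pxr+/+ ATB it was 7.61, 7.98 and 8.17 in males and 7.08, 7.37 and 7.76 in females, a fold of 1.46 (limma, adjusted p = 0.00759), again with 5 of 6 males above all females. In Pxr-/- Cont the males were at 7.84, 8.43, 8.47, 8.49 and 8.62 and the females at 7.52, 7.64 and 7.86, and 4 of 5 males lay above all females. The fold there was 1.64 (limma, adjusted p = 0.00074). The lowest male is the replicate with the low Eif2s3y signal. In Pxr-/- ATB the difference was 0.32 on the log2 scale with a 95% interval from 0.03 to 0.61 and did not pass (limma, adjusted p = 0.0855).

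Ugt2b5, Ugt2b36 and Ugt2b38, whose promoters are so alike, had small differences that were largest in Pxr-/- Cont mice. Ugt2b5 in that setting was at 14.88, 14.89, 14.92, 15.16 and 15.44 in the males and at 14.09, 14.42 and 14.69 in the females, as lowest, median and highest. The sexes did not overlap, and the fold was 1.54 (limma, adjusted p = 0.000309). Ugt2b38 was at 15.48, 15.53, 15.56, 15.75 and 15.83 in those males and at 14.94, 15.11 and 15.50 in the females, a fold of 1.38 (limma, adjusted p = 0.00205). Ugt2b36 was at 14.02, 14.05, 14.13, 14.21 and 14.53 in the males and at 13.15, 13.70 and 14.27 in the females, which overlap, a fold of 1.38 (limma, adjusted p = 0.0146). Ugt2b5 also passed in Pxr+/+ Cont (fold 1.24, limma adjusted p = 0.0343) and Pxr+/+ ATB (fold 1.31, limma adjusted p = 0.0223), with overlapping groups in both. The Pxr+/+ Cont call of Ugt2b5 was lost without any 1 of 7 mice of the groups compared (male replicates 2, 3 and 6 and female replicates 1, 2, 3 and 6), and in wash batch 2 the log2 difference was -0.03. Its Pxr+/+ ATB call was lost without male replicate 1 or female replicate 5, and the call of Ugt2b36 without male replicate 4 or female replicate 1. The other differences of these 3 genes ranged from 0.07 to 0.28 on the log2 scale and were not called. Whether the sex difference in Cont mice differed between genotypes was tested in the same model, and for Ugt2b5 the Pxr-/- value was 0.31 larger (limma, adjusted p = 0.972).

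Ugt2b34, Ugt2a3 and Ugt1a6a were not called by sex in any setting, though Ugt2b34 and Ugt1a6a were under some alternatives. Ugt2b34, at the end of the cluster, had a negative log2 difference, males less females, in all 4 settings, though positive values up to 0.12 were reached in both Cont settings under other scalings (-0.24, -0.18, -0.05 and -0.30 in Pxr+/+ Cont, Pxr+/+ ATB, Pxr-/- Cont and Pxr-/- ATB), with adjusted p between 0.0515 and 0.826 by limma. In Pxr-/- ATB, Ugt2b34 was at 14.37, 14.55 and 14.80 in males and at 14.68, 14.81 and 15.07 in females, which overlap. That difference was called lower in males under 4 of 11 alternatives, none of them a change of scaling, with a lowest adjusted p of 0.0377 by limma, and its value was between -0.30 and -0.05 under all 11. Ugt1a6a was called higher in males under 5 of 11 alternatives in Pxr+/+ ATB (0.33 to 0.53 over all 11) and under 3 of 11 in Pxr-/- Cont (0.26 to 0.60). Ugt2a3, at 13.10 to 14.32 over all mice, differed by -0.18 to 0.03.

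In counts, the members called were 3 of 8 in Pxr+/+ Cont, 3 in Pxr+/+ ATB, 5 in Pxr-/- Cont and 1 in Pxr-/- ATB, all of them higher in males. Over all tested probes, 30.6, 11.5, 14.8 and 25.7% were called in these settings, but most were lower in males (28.7, 8.17, 12.5 and 23.5%), and 1.97, 3.3, 2.24 and 2.21% were higher. Ranges that did not overlap, with males higher, were seen for 1 member in 3 settings and for 2 members in Pxr-/- Cont, against 0.985, 2.15, 1.39 and 1.27% of all probes. The median log2 difference of the 8 members was 0.20, 0.33, 0.46 and 0.10, and that of all probes was -0.20, -0.03, -0.12 and -0.18. Under quantile normalization, which sets the distribution of every array equal, the median of all probes was 0.02, 0.02, 0.01 and 0.01 and that of the members 0.39, 0.36, 0.60 and 0.27. The sign of each called member was the same under every setting tried.

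**Figure D2:**
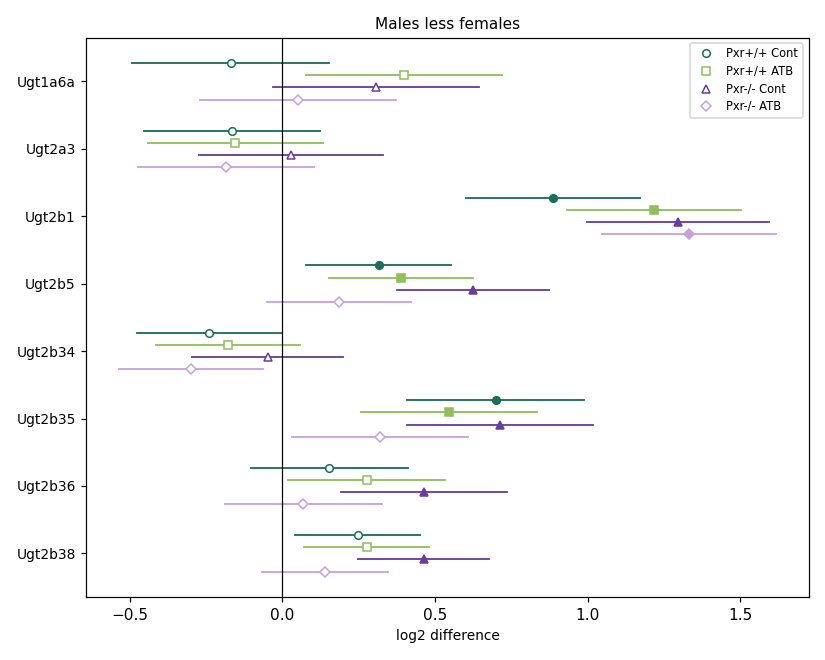
Log2 difference, males less females, of the 8 members in the 4 settings of genotype and treatment, with 95% confidence intervals; filled points were called. Ugt2b1 was called in all 4 settings, at 0.89 to 1.33, and Ugt2b34 lay below 0 in all 4 without being called, a sign that other scalings turned in both Cont settings.

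The mean of the sex difference over the 4 settings, a contrast added after the values were seen, called 4 of 8 members, all higher in males, against 25% of all probes in either direction, 2.99% higher and 22% lower. The log2 difference was 1.18 for Ugt2b1 (limma, adjusted p = 4.85e-18), 0.57 for Ugt2b35 (adjusted p = 1.45e-08), 0.38 for Ugt2b5 (adjusted p = 1.07e-06) and 0.28 for Ugt2b38 (adjusted p = 1.46e-05). Ugt2b36 at 0.24 and Ugt2b34 at -0.19 passed the false discovery rate but had folds of 1.18 and 1.14, under the minimum. Under the 11 alternatives Ugt2b36 ranged from 0.23 to 0.43 and was called in 4, and Ugt2b34 ranged from -0.19 to 0.02 and was called in 0, with a changed sign in 1.

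The probes of the Ugt1 locus did not move together by sex. The probe in the shared coding exon, which reads the sum of all Ugt1a transcripts, was lower in males in all 4 settings, and so was the probe in the shared 3′ end. The probe in the first exon of Ugt1a6b, an enzyme for simple phenols, was higher in males in 2 of 4. The member probe Ugt1a6a, in the last bases of the shared 3′ end, ranged from 5.89 to 7.58 over all mice, and its sex differences of -0.17, 0.40, 0.31 and 0.05 in Pxr+/+ Cont, Pxr+/+ ATB, Pxr-/- Cont and Pxr-/- ATB were not called. In 3 of 4 settings its sign was thus opposite to that of the other probe in the shared 3′ end. Over the 8 group means the correlation of these 2 probes was -0.38. The Ugt1a6a probe is dim, while group means of the other ran from 16.34 to 16.94. Why 2 probes of the same 3′ end differ so in brightness was not tested, so nothing is concluded from the sign of the dim one.

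For the shared coding exon, the log2 level in Pxr+/+ Cont was 14.30, 14.39 and 14.48 in males (lowest, median, highest) and 14.92, 15.14 and 15.17 in females. In Pxr+/+ ATB it was 14.43, 14.49 and 14.70 in males and 14.76, 15.03 and 15.38 in females. In Pxr-/- ATB it was 14.43, 14.51 and 14.61 in males and 15.11, 15.21 and 15.49 in females. Males and females did not overlap in these 3 settings, as was so, with males lower, for 14.9, 4.02 and 8.66% of all probes. In Pxr-/- Cont the males ranged from 14.53 to 14.88 and the females from 14.86 to 15.21, which overlap. The log2 differences were -0.71 (limma, adjusted p = 9.71e-09), -0.50 (1.55e-05), -0.34 (0.00517) and -0.73 (3.27e-09) in Pxr+/+ Cont, Pxr+/+ ATB, Pxr-/- Cont and Pxr-/- ATB. The shared 3′ end gave -0.54, -0.49, -0.34 and -0.51, all called. The Pxr-/- Cont difference of these probes was called in 5 and 6 of 10 alternatives, while its sign held in all of them.

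The first exon of Ugt1a6b had log2 differences of 0.25 (limma, adjusted p = 0.061), 0.41 (0.00769), 0.35 (0.0273) and 0.19 (0.17) in the same order. In Pxr+/+ ATB it was at 9.42, 9.61 and 9.71 in males and at 8.85, 9.26 and 9.34 in females. These did not overlap, as was so with males higher for 2.15% of all probes. Averaged over the settings the first exon stood at 0.30 (adjusted p = 1.14e-05) and the shared coding exon at -0.57 (adjusted p = 2.54e-15). Ugt1a10, read in its own first exon (chr1:89952780-89952839), was at 6.41, 6.65 and 7.19 in Pxr+/+ Cont males and at 7.93, 9.09 and 10.38 in females, a log2 difference of -2.42 (limma, adjusted p = 0.00888). It was not called by sex in the other settings, where it differed by -0.84, 1.19 and -0.21 in Pxr+/+ ATB, Pxr-/- Cont and Pxr-/- ATB. Within wash batches the Pxr+/+ Cont difference was -3.56, -1.11 and -1.59. The SD of Ugt1a10 was 0.28 in Pxr+/+ Cont males, against 1.08 to 1.96 in the other groups. The first exons of the other Ugt1a genes were not analysed here, so the transcript behind the female-higher shared exons cannot be named.

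**Figure D3:**
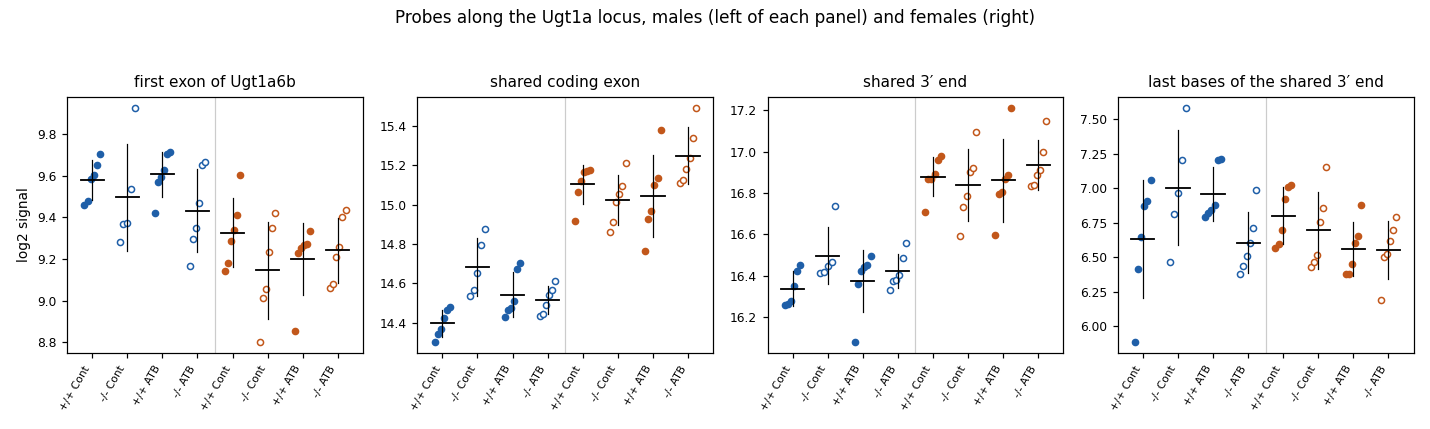
Log2 signal in each mouse of 4 probes of the Ugt1 locus, with males in blue, females in orange, filled points for Pxr+/+ and open points for Pxr-/-; lines are means and bars ± SD. In Pxr+/+ Cont mice the shared coding exon lay at 14.30 to 14.48 in males and 14.92 to 15.17 in females, while the first exon of Ugt1a6b lay on average 0.25 higher in males.

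Pxr-/- mice were compared with Pxr+/+ mice to ask which members depended on the receptor's presence. No member was called in any of the 4 settings. The members with the largest differences were Ugt2b1 and Ugt2b34, both higher in Pxr-/-. By limma 0 of 8 were called in male Cont, female Cont, male ATB and female ATB, where 0.146, 3.04, 0.87 and 0.158% of all probes were called. At an unadjusted p under 0.05 there were 3, 0, 3 and 3 members, and the smallest adjusted p of a member was 0.54, 0.275, 0.0619 and 0.113. Under 4 other scalings, quantile normalization and the authors' own values among them, Ugt2b1 and Ugt2b34 were called in ATB males and Ugt2b34 in ATB females.

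Ugt2b34 in Cont males was at 14.07, 14.20 and 14.30 in Pxr+/+ (lowest, median, highest) and at 14.34, 14.36, 14.45, 14.64 and 14.85 in the Pxr-/- mice. In ATB females it was at 13.96, 14.41 and 14.61 in Pxr+/+ and at 14.68, 14.81 and 15.07 in Pxr-/-. Every Pxr-/- mouse lay above every Pxr+/+ mouse in both settings, as was so for 0.294 and 0.331% of all probes. The log2 differences were 0.33 with a 95% interval from 0.09 to 0.58 in Cont males (limma, adjusted p = 0.813) and 0.47 with one from 0.23 to 0.71 in ATB females (limma, adjusted p = 0.113). In Cont females the difference was 0.14 and in ATB males 0.35 (limma, adjusted p = 0.479 and 0.105), with overlapping groups.

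Ugt2b1 was at a median of 12.02 in Cont males with Pxr+/+ and 12.51 with Pxr-/-, and at 12.31 and 12.89 in ATB males, and the genotypes overlapped in both. Its log2 differences, Pxr-/- less Pxr+/+, were 0.47 (95% interval 0.17 to 0.77) in Cont males, 0.06 in Cont females, 0.51 (0.23 to 0.80) in ATB males and 0.40 (0.11 to 0.69) in ATB females. The adjusted p in limma was 0.54, 0.843, 0.0619 and 0.728. Ugt2b35 differed by 0.11 to 0.39 and Ugt1a6a by -0.35 to 0.37.

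The median difference of the 8 members was 0.17, -0.10, -0.06 and 0.11 in Cont males, Cont females, ATB males and ATB females, and that of all probes was -0.04, -0.11, -0.13 and 0.01. The mean of the genotype difference over the 4 settings, also added after the values were seen, called Ugt2b34 and Ugt2b1, both higher in Pxr-/-. That is 2 of 8 members, against 3.31% of all probes, or 0.591% in the higher direction. Ugt2b34 differed by 0.32 (95% interval 0.20 to 0.44, fold 1.25, limma adjusted p = 0.000407) and by 0.25, 0.45 and 0.29 within the 3 wash batches. Ugt2b1 differed by 0.36 (95% interval 0.21 to 0.50, fold 1.28, limma adjusted p = 0.00123) and by 0.22, 0.48 and 0.47 within batches. Both were called under all 11 alternatives and whichever of the 47 mice was left out. Ugt2b35 differed by 0.20 (limma, adjusted p = 0.0707).

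Ugt2a1, a neighbor known from the olfactory epithelium, is no member but moved with genotype in the same direction. In ATB females its level was 9.12, 9.40 and 9.61 in Pxr+/+ and 9.82, 9.97 and 10.14 in Pxr-/-, without overlap. The log2 difference was 0.61 (limma, adjusted p = 0.0176). In that setting 0.124% of all probes were called higher, and 0.331% had no overlap with Pxr-/- higher. The mean over the 4 settings was 0.46 (limma, adjusted p = 2.61e-06), at 0.47, 0.44 and 0.45 within batches. In Cont females Ugt3a1 and Ugt3a2, distant relatives that use other sugar donors, were lower in Pxr-/-, with log2 differences of -0.42 and -0.47 (limma, adjusted p = 0.0429 and 0.0235), where 2.87% of all probes were called lower. The call of Ugt3a2 was lost under quantile normalization.

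**Figure D4:**
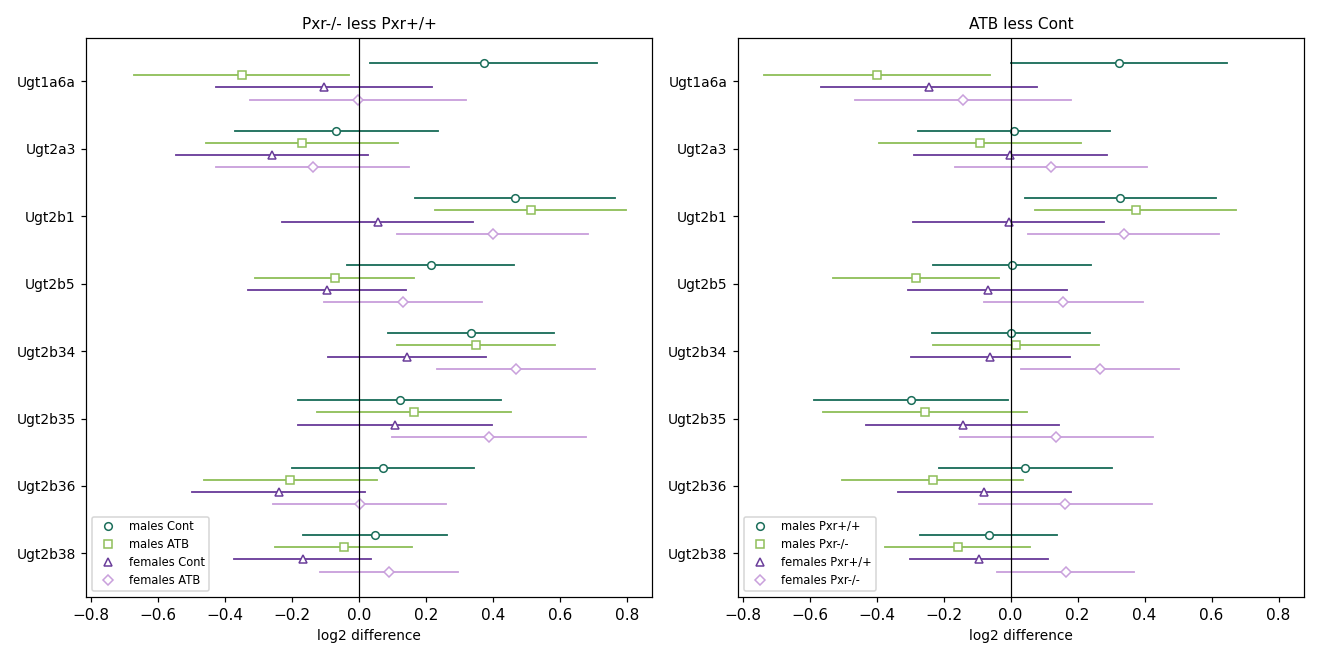
Log2 differences of the 8 members, Pxr-/- less Pxr+/+ in the left panel and ATB less Cont in the right panel, each in 4 settings with 95% confidence intervals; open points were not called. All points are open, and Ugt2b1 and Ugt2b34 show the largest genotype differences, at 0.51 and 0.47.

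ATB mice were compared with Cont mice to ask which members responded to depletion of the gut microbiota. No member was called in any setting, and the largest differences, in either direction, were those of Ugt1a6a and Ugt2b1. By limma 0 of 8 were called in male Pxr+/+, female Pxr+/+, male Pxr-/- and female Pxr-/-, where 0.952, 0.0121, 0.0728 and 0.0273% of all probes were called, so few probes passed in 3 of these comparisons. At an unadjusted p under 0.05 there were 3, 0, 3 and 2 members. In male Pxr+/+ mice Ugt2b1 had a lowest, median and highest level of 11.55, 12.02 and 12.20 in Cont and 11.80, 12.31 and 12.51 in ATB, and 5 of 6 ATB mice lay above all Cont mice. The log2 difference of Ugt2b1 was 0.33 there, -0.01 in female Pxr+/+, 0.37 in male Pxr-/- and 0.34 in female Pxr-/- mice, with adjusted p in limma between 0.216 and 0.993.

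Ugt1a6a differed by 0.32 in male Pxr+/+ and by -0.40 in male Pxr-/- mice (limma, adjusted p = 0.272 and 0.673). Its probe is dim and does not separate it from its relatives. Ugt2b35 differed by -0.30 in male Pxr+/+ (limma, adjusted p = 0.262) and Ugt2b34 by 0.27 in female Pxr-/- mice (limma, adjusted p = 0.358). The median difference of the members was 0.01, -0.07, -0.20 and 0.16, and that of all probes was 0.10, -0.06, 0.01 and 0.06. In the mean over the 4 settings 0 of 8 members were called by limma, against 1.98% of all probes, with 1 member at an unadjusted p under 0.05. That was Ugt2b1, at 0.26 (95% interval 0.11 to 0.40, adjusted p = 0.0235), whose fold lay just under 1.2.

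The differences between effects were tested in the same model. The genotype effect in males less that in females (Cont mice), the ATB effect in males less that in females (Pxr+/+ mice), and the ATB effect in Pxr-/- less that in Pxr+/+ mice (males, then females) called 0 of 8 members each, against 0.0152, 0.0303, 0.0121 and 0% of all probes. At an unadjusted p under 0.05 there were 1, 1, 1 and 0 members, which was Ugt1a6a each time. For Ugt2b1 the genotype effect was 0.41 larger in Cont males than in Cont females, with a 95% interval from -0.003 to 0.82 (limma, adjusted p = 0.972). For Ugt1a6a the ATB effect in males was -0.72 in Pxr-/- relative to Pxr+/+, with a 95% interval from -1.19 to -0.26 (limma, adjusted p = 0.842).

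The other steps of glucuronidation were described from lists of genes. Of the genes that supply UDP-glucuronate, 3 of 3 were tested. Males were higher for 1, 2, 1 and 0 and lower for 0, 0, 0 and 1 in Pxr+/+ Cont, Pxr+/+ ATB, Pxr-/- Cont and Pxr-/- ATB. Over all probes, 1.97, 3.3, 2.24 and 2.21% were called higher and 28.7, 8.17, 12.5 and 23.5% lower in these settings. Slc35d1, which carries UDP-glucuronate into the endoplasmic reticulum, was higher in males by 0.66, 0.63 and 0.45 in the first 3 of these (limma, adjusted p = 0.00054, 0.00166 and 0.0338). Ugdh, which makes UDP-glucuronate, was higher by 0.53 in Pxr+/+ ATB (limma, adjusted p = 0.0325). Ugp2, which makes UDP-glucose, was lower in males in Pxr-/- ATB, with a difference of -0.48 (limma, adjusted p = 0.0328), a call lost under quantile normalization. The median of the list was 0.12, 0.53, 0.13 and 0.27.

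Among 3 genes of glucuronide hydrolysis, Ces1e, the carboxylesterase also called egasyn that holds beta-glucuronidase in the endoplasmic reticulum, was higher in males by 0.72, 0.64, 0.62 and 0.53, all called. Abhd10, which hydrolyzes acyl glucuronides, was lower in Pxr-/-, with log2 differences of -0.45 in Cont females and -0.61 in ATB males (limma, adjusted p = 0.0139 and 0.000492). It differed by -0.45 in Cont males and by -0.17 in ATB females, neither called. Over all probes, 2.87% were called lower in Cont females and 0.87% in either direction in ATB males. Where Abhd10 lies relative to the deleted gene was not examined. Among 6 transporters, males were higher for 2 and lower for 1 to 2 in each setting. Over all probes, 1.97 to 3.3% were called higher in males and 8.17 to 28.7% lower, depending on the setting. Slco1a1, a sinusoidal carrier that takes up organic anions, was higher in males by 4.96, 4.58, 6.10 and 4.03, and Abcg2, a canalicular exporter, by 1.08, 1.19, 0.94 and 1.03. Abcc4, a sinusoidal exporter, was lower in males, with differences of -1.06, -1.15, -1.30 and -1.15. Abcc3, another sinusoidal exporter of glucuronides, was higher in Pxr-/- by 0.50 in Cont females (limma, adjusted p = 0.017). By sex it was lower in males in the last 3 settings, with differences of -0.37, -0.42 and -0.61, while under quantile normalization it was called higher in males in Pxr+/+ Cont. Abcc2, the canalicular exporter of bilirubin glucuronides, was not called in any comparison.

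Receptors and other regulators of the family made up a list of 10 genes. Males were lower for 3, 1, 3 and 4 of them, beside 28.7, 8.17, 12.5 and 23.5% of all probes, and for 2, 1, 1 and 1 under quantile normalization, and 0 of 10 were called for genotype or ATB in any single setting by limma, with at most 4 at an unadjusted p under 0.05. Nr1i3, the constitutive androstane receptor, was lower in males in all 4 settings, with differences of -0.53, -0.59, -0.62 and -1.04. Ahr, the aryl hydrocarbon receptor, was lower in males in 3 of 4, with differences of -0.71, -0.55 and -0.43 in Pxr+/+ Cont, Pxr-/- Cont and Pxr-/- ATB. The probe of Nr1i2, the deleted gene, differed by -0.57 to -0.28, Pxr-/- less Pxr+/+, without being called in any single setting, and its place relative to the deletion was not given, so it checks nothing.

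Of 6 known targets of these receptors, some were called by genotype, all higher in Pxr-/-. They were 1, 1, 2 and 1 in male Cont, female Cont, male ATB and female ATB mice. Over all probes, 0.146, 3.04, 0.87 and 0.158% were called in either direction. Cyp2b10, Cyp1a1, Cyp1a2 and Nqo1 were not called by genotype in any setting. Cyp2c55 was higher in Pxr-/- by 2.36, 2.43, 3.37 and 3.03, all called. Cyp3a11, the main target of the pregnane X receptor among cytochromes P450, was at 13.89, 14.15 and 14.42 in male Pxr+/+ Cont and at 11.89, 11.99 and 12.55 in male Pxr+/+ ATB mice, a log2 difference of -2.04 (limma, adjusted p = 1.19e-10). In male Pxr-/- mice the ATB difference of Cyp3a11 was -0.20 and not called. The ATB effect in males was 1.84 in Pxr-/- relative to Pxr+/+ (limma, adjusted p = 9e-05). Of the single settings, Cyp3a11 was called by genotype in ATB males only, higher in Pxr-/- by 2.40 (limma, adjusted p = 3.32e-13). Cyp2b10, the main target of the constitutive androstane receptor, was lower in ATB males of both genotypes, with differences of -3.11 in Pxr+/+ and -1.87 in Pxr-/- (limma, adjusted p = 5.28e-08 and 0.0131). Nqo1, a target of the xenobiotic sensors Ahr and Nrf2, was lower in males, with differences of -1.21, -1.11, -1.25 and -1.45.

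Markers of another liver cell type were called by sex in some settings. Of 7 macrophage markers, all detected, 6, 4, 4 and 0 were called lower in males in the 4 settings. This stands beside 28.7, 8.17, 12.5 and 23.5% of all probes, and calls of these markers under quantile normalization are not given here. The log2 of their summed signal ranged from 13.93 to 14.39 in male and from 14.78 to 15.92 in female Pxr+/+ Cont mice. In Cont females 4 of 7 were called lower in Pxr-/-, beside 2.87% of all probes. In these Pxr-/- females the summed signal ranged from 13.97 to 14.57. The sums in ATB males with Pxr-/- ranged from 13.18 to 15.99, with 0 of 7 called between the sexes. The part of these markers in the members' differences was not tested. The hepatocyte sum ranged from 20.31 to 20.57 over all mice.

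Last, members were compared in how they varied. Over mice, after subtraction of each group's mean, Ugt2b5 and Ugt2b38 had a Pearson correlation of 0.87, and Ugt2b5 and Ugt2b37, whose probes may share signal, one of 0.86. These values are descriptions, as both genes of a pair were read on the same array of each of the 47 mice and normalized together. Over the 8 group means, among 16365 genes, Mrgpre and AV482902 were most like Ugt2b1 (both r = 0.99), Rd3 and Ces1e most like Ugt2b35 (both r = 0.98), and Dyrk1b and Abi3bp most like Ugt2b34 (r = 0.97 and 0.95). Stard5 and Aqp1 were most like Ugt2a3 (both r = 0.98) and Fam13c and Slc47a2 most like Ugt2b5 (both r = 0.97). For Ugt2b36 these were Gpsm2 and Snora34 (both r = 0.97), for Ugt2b38 AA209734 and A230050P20Rik (r = 0.99 and 0.98), and for Ugt1a6a Tmem178b and A430088P11Rik (r = 0.93 and 0.91). Such correlations rest on 8 points, and within groups the same pairs had correlations from -0.22 to 0.58.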

How the data were processed

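Liver RNA of 47 mice was labelled by the authors and hybridized to Agilent mouse arrays, read with Agilent Feature Extraction 10.10.1.1 per the labels. The deposited scanner files give an intensity for each spot on a linear scale, not scaled between arrays. A deposited table holds log2 values of 33383 probes, which the authors had filtered, corrected for wash batch and normalized with CrossNorm.

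Here log2 of the median signal was taken and 422 non-uniform spot values were left out. A probe was tested if the scanner marked it as well above background on 5 or more arrays of any group, which left 32980 of 56605. The wash batch (3 batches) was removed with group means kept, and CrossNorm was run with 300 draws. Groups came from the titles. A model of 8 groups and wash batch was fitted with the R package limma (version 3.58.1), under R 4.3.3 and with data.table (version 1.17.8) for reading, after the code was tested on simulated data, with Benjamini-Hochberg adjustment over all tested probes. Calls needed 0.05 or less and a fold above 1.2. Of the tested probes, 32795 are in the authors' table, and the rules of their filter and stacking were not given. The number of arrays limits the precision. The 11 alternatives counted above are all the fits made, with this fit as 1 of them. Each mouse was also left out in turn. Members and lists were chosen with earlier results of these data known. Every member was named; of each list, up to 4 called genes with the largest change were named, with Nr1i2, Ugdh, Abcc2, Abcc3, Cyp3a11, Cyp2b10 and Cyp2c55 named whether called or not, and for each member the 2 genes most like it over group means. The means over 4 settings were added after the values were seen. Replicate numbers did not pair the mice.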

Additional observations from a re-analysis of the deposited data

Results flagged for a closer look

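Among male Pxr-/- Cont mice, replicate 2 stood apart for Ugt2b35, with a log2 level of 7.84 against 8.43 for the nearest of the other 4 mice, a gap of 0.759 of the group's whole range. A single value far from the rest of its group drew attention to it. In all, 64 groups of values, 8 members in 8 groups, were examined for such values, of which about 3.2 would be marked by chance alone. The same mouse had the lowest Eif2s3y signal of the males, at 8.58, and a male level of Xist, at 4.44. Without this replicate, the sex difference of Ugt2b35 in Pxr-/- Cont stayed called.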

How the results depend on the processing

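The number of members called by sex depended on the scaling in 3 of 4 settings. Under quantile normalization, the processed signal scaled to the 75th percentile, normexp with quantile normalization and the authors' own values, it was 5 rather than 3 in Pxr+/+ Cont and 6 rather than 3 in Pxr+/+ ATB, and in Pxr-/- ATB it was 4, 5, 4 and 3 rather than 1. The same 4 scalings called 2 members for genotype in ATB males (Ugt2b1 and Ugt2b34) and 1 in ATB females (Ugt2b34), rather than 0. Fitting only the groups compared gave 6 by sex in Pxr+/+ ATB, 3 rather than 5 in Pxr-/- Cont and 2 in Pxr-/- ATB, where a slide block and a filter to probes detected on all 47 arrays also gave 2. In each of these fits the added member in Pxr-/- ATB was Ugt2b34, lower in males, and so it was under the replicate block. The replicate block, for numbers that did not pair the mice (correlations of deviations from -0.34 to 0.55), gave 2 by sex in Pxr-/- ATB, 1 for genotype in ATB males and 1 (Ugt2b1) for the mean ATB effect, and moved no other count by over 1.5 times. With each mouse left out in turn the counts by sex were 2 to 4 in Pxr+/+ Cont, 2 to 4 in Pxr+/+ ATB, 4 to 5 in Pxr-/- Cont and 1 to 2 in Pxr-/- ATB (2 in 13 cases, of which 12 added Ugt2b34, lower in males, and 1, without male Pxr-/- ATB replicate 6, added Ugt2b35), 0 to 1 for genotype in ATB males (1 without male Pxr-/- ATB replicate 1 or female Pxr-/- Cont replicate 3), and 0 to 1 for the mean ATB effect (1 in 14 of 47 cases). The cause of these changes was not tested. No called member changed sign, and the other counts stayed within 1.5 times. Over all probes, quantile normalization gave 14.4% called rather than 30.6% by sex in Pxr+/+ Cont, 11.9 rather than 25.7% in Pxr-/- ATB, 16.7 rather than 25% for the mean sex difference, 0.97 rather than 3.04% for genotype in Cont females and 1.62 rather than 3.31% for its mean.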

Other observations

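Of the other liver cell types, 3 of 5 sinusoidal endothelial markers were lower in Pxr-/- than in Pxr+/+ Cont females, beside 2.87% of all probes. Pecam1 differed there by -0.16 and Lyve1 by 0.05, neither called. In Pxr+/+ Cont, 4 of 5 stellate cell markers were lower in males than in females, beside 28.7% of all probes. Of those stellate cell markers 0 were called under quantile normalization. Ugt2b37, whose probe may share signal with that of Ugt2b5, had a log2 level of 13.06 to 13.86 in Pxr-/- Cont males and 12.51 to 13.04 in females. The difference was 0.65 (limma, adjusted p = 0.000418), without overlap, as was so with males higher for 1.39% of all probes. For Ugt1a10, the levels ranged from 7.23 to 10.44 in male Pxr-/- Cont and from 6.41 to 7.19 in male Pxr+/+ Cont mice. The difference was 2.83 (limma, adjusted p = 0.199), without overlap, as was so with Pxr-/- higher for 0.294% of all probes. The probe varied widely in other groups, from 5.93 to 9.82 in male Pxr+/+ ATB and from 5.82 to 10.13 in male Pxr-/- ATB mice. Over the 8 group means, the first exon of Ugt1a6b and the shared 3′ end of the Ugt1 locus had a correlation of -0.91, and within groups one of 0.38, both given as descriptions. Of 4 genes from heme to bilirubin, Hmox2 and Blvra were lower in Pxr+/+ Cont males than in females, where 28.7% of all probes were lower. Quantile normalization did not make the calls of Hmox2 and Blvra. Blvrb, a biliverdin reductase, was lower in ATB mice in the mean over 4 settings, with a difference of -0.27 (limma, adjusted p = 0.0118).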
